A study of Mus musculus with 9 samples.

Results

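The 5 ligand genes of the vascular endothelial growth factor family, Vegfa, Vegfb, Vegfc, Vegfd and Pgf, were followed across 9 RNA libraries of the mouse renal carcinoma line RENCA. They were taken by gene symbol from a deposited table of 54532 genes, and each of the 5 symbols matched 1 row. Of these 5 genes, 3 (Vegfa, Vegfb and Vegfd) had enough counts to be among the 13326 genes tested. Vegfc and Pgf did not pass that filter and are given as counts.

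RENCA cells carrying an empty vector, with the genotype given as WT, formed the reference group. Knockout cells, labelled NDUFA4L2 -/-, were edited with Cas9 and a single guide against Ndufa4l2, a gene for a mitochondrial protein, and were grown as colonies from single cells. Rescue cells, labelled NDUFA4L2 +/+, were described as the knockout line with Ndufa4l2 stably re-expressed from a lentivirus under puromycin at 1.5 ug/mL. Each group had 3 libraries. The design text counts fewer knockout replicates than are labelled, and all 3 labelled libraries were used. The labels do not say whether replicates were separate cultures, so the p-values reflect the spread among libraries and that spread may be technical. Clone choice, editing, lentivirus and puromycin cannot be told apart from loss or return of the gene.

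The family consists of secreted dimeric proteins that bind receptor tyrosine kinases, mainly on endothelial cells. Vegfa is the main driver of blood vessel growth through Kdr, is induced by hypoxia-inducible factors, and is a known product of renal carcinoma with loss of Vhl. Vegfb and Pgf bind Flt1. Vegfc and Vegfd act through Flt4 on lymphatic vessels, and are made as precursors that proteases trim into more active forms. Vegfd was first described as a growth factor induced by Fos. The neuropilins Nrp1 and Nrp2 serve as co-receptors for Vegf ligands and for class 3 semaphorins.

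Of the 3 ligands tested, 2 rose (Vegfb and Vegfd) and 1 fell (Vegfa) in knockout against empty vector, by edgeR's quasi-likelihood test at an adjusted p under 0.05. In this comparison 60.6% of all tested genes were called (29.5% higher and 31.1% lower), so a call by itself sets no ligand apart. An increase of at least 5 log2 units, such as that of Vegfd, was called for 0.203% of tested genes. Vegfa changed by -0.42 and Vegfb by 0.47, where the median absolute log2 change of all tested genes was 0.369. For rescue against knockout that median was 0.337, and Vegfb changed by -0.28. In rescue against knockout Vegfd and Vegfb fell while Vegfa was not called, where 56.8% of tested genes were called, 27.3% were lower and 0.465% fell by at least 5 log2 units. In rescue against empty vector Vegfa fell, Vegfb rose and Vegfd was not called, with 47.5% of tested genes called (22.4% higher and 25.1% lower). Groups did not overlap for any of the 3 ligands in knockout against empty vector, which was so for 63.7% of tested genes. In rescue against knockout this held for Vegfb and Vegfd (65.3% of tested genes), and in rescue against empty vector for Vegfa and Vegfb (55.1%).

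Library totals ran from 13106531 to 26643877 counts. Ndufa4l2 itself had 12, 6 and 16 counts with empty vector, 7, 8 and 6 in knockout cells and 73, 48 and 35 in rescue, so its mRNA rose in rescue against knockout (log2 change 2.57 ± 0.34, SE; edgeR adjusted p = 2.15e-06) and was too low to check the knockout label. Genes of the mitochondrial genome took 2.79% ± 0.550, 7.01% ± 1.10 and 2.47% ± 0.212 of counts (SD, n = 3) in the empty-vector, knockout and rescue groups. The renal epithelial markers Pax8, Pax2, Krt8, Krt18 and Cdh16 were expressed, and Epcam had at most 3 counts in a library. Summed over the 6 renal epithelial markers, the level was 929 to 1140 CPM (counts scaled to effective library size) in the empty-vector libraries, 1470 to 1590 CPM in those of knockout and 1260 to 1320 CPM in those of rescue. In knockout against empty vector Pax8 fell by 1.26 log2 units, while Cdh16 (1.14), Krt8 (0.84), Krt18 (0.51) and Pax2 (0.17) rose (edgeR adjusted p at most 0.0235). Of all tested genes 60.6% were called there. In rescue against empty vector Pax8 was also called lower and the other 4 higher, where 47.5% of tested genes were called. Of 7 blood endothelial markers, Emcn and Kdr had no count and Cdh5 and Tie1 at most 3 in a library. The summed level of the 7 was 162 to 176 CPM with empty vector, 273 to 300 CPM with knockout and 118 to 134 CPM with rescue, almost all of it Eng. Of 3 lymphatic markers none exceeded 3 counts in a library and Lyve1 had none, with summed levels of at most 0.0643, 0.127 and 0 CPM. Among 5 leukocyte markers, Cd3e had no count and Ptprc and Tyrobp at most 3, while the sum, mainly Lyz2 and Cd79a, was 3.13 to 4.57, 11.2 to 13.4 and 3.59 to 4.10 CPM. Of 5 fibroblast markers, Lum had no count and Pdgfra, Dcn and Thy1 at most 3, with a sum, mainly Col1a1, of 1.40 to 2.09, 5.20 to 5.91 and 3.56 to 4.81 CPM. The part of these shifts in the ligand changes was not tested. In bulk RNA, fewer cells expressing a ligand and less RNA per cell cannot be told apart.

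The sequence just upstream of the 3 expressed ligands is shown to describe its base composition and motifs. Whether these bear on the size of any change was not tested. Sequences are RefSeq promoter windows on GRCm38.p6, read 5′ to 3′ on the strand of the gene, and all 5 ligands had one. Each lies upstream of the annotated gene and ends before both the RefSeq start and the start in the deposited table, which for Vegfd lie 144 bases apart. Capitals mark the motifs GGGCGG (GC box) and GCGTG (a core of hypoxia response elements) on either strand, and the Vegfd stretch has neither. The stretches are chr17:46032378-46032627 (minus strand) for Vegfa, chr19:6987652-6987901 (minus strand) for Vegfb and chrX:164373272-164373377 (plus strand) for Vegfd.
Vegfa: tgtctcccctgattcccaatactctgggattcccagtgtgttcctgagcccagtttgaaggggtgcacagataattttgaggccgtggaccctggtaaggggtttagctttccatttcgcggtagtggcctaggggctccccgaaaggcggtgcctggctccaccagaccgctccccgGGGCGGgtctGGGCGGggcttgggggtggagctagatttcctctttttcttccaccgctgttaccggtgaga
Vegfb: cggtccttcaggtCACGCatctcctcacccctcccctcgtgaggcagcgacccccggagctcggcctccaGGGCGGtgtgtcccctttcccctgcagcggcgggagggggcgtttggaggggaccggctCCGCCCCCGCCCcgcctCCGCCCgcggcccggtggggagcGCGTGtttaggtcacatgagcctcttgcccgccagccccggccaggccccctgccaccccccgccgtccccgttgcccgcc
Vegfd: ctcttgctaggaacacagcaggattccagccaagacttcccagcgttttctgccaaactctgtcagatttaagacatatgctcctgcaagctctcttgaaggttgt

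Over the 250 bases before the RefSeq start, GC content was 42.4% for Vegfd, 59.2% for Vegfa and 76.4% for Vegfb, against a median of 52.4% over 32841 mouse promoter windows of that length. The GC box GGGCGG was found 2 times for Vegfa, 4 times for Vegfb and 0 times for Vegfd, and in 32.7% of all windows. GCGTG was found 2 times for Vegfb and not for Vegfa or Vegfd (28.2% of windows). The other hypoxia core searched, ACGTG, was in none of the 5 ligand windows (16.6% of all windows), nor was the AP-1 motif TGANTCA (6.75%). Vegfd was the one ligand with a TATAAA (12.4% of windows), which began 73 bases before its RefSeq start and lies outside the printed stretch. The last 144 bases of the Vegfd window, with this TATAAA, lie within the gene as placed in the deposited table. The GC content of that window therefore covers bases on both sides of the start given there. All motifs were searched on both strands. A match or its absence describes these letters in this window and nothing about binding.

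Vegfd (ENSMUSG00000031380; chromosome X, 164373378 to 164402650, plus strand, build mm10) showed 28, 5 and 14 counts in empty-vector libraries 1 to 3, 601, 559 and 1036 in knockout cells and 31, 19 and 14 in rescue. Scaled for depth, this was 1.24, 0.322 and 0.562 CPM, then 38.2, 46.2 and 43.6 CPM, then 1.10, 1.04 and 0.881 CPM. All 3 knockout libraries stood far above the other 6, and empty vector and rescue overlapped. The increase in knockout against empty vector was 56.9-fold (log2 change 5.83 ± 0.20, SE; edgeR adjusted p = 2.9e-13), which ranked it 16 of 13326 genes by log2 change. Leaving out any 1 of the 6 libraries compared gave 5.58 to 6.54 log2 units. In rescue against knockout it fell by 5.37 ± 0.19 on the log2 scale, or 41.3-fold (edgeR adjusted p = 3.7e-13), at rank 59 from the lowest.

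Rescue and empty vector were not shown to differ in Vegfd. Their log2 difference was 0.46 with a 95% confidence interval of -0.24 to 1.17 (edgeR adjusted p = 0.27). The highest of the empty-vector values was that of replicate 1, and without that library the difference was 1.15 (edgeR adjusted p = 0.0049) and the increase in knockout was 6.54 log2 units. Per length, Vegfd stood at 0.292 ± 0.200 FPKM with empty vector, 17.7 ± 1.67 in knockout cells and 0.416 ± 0.0474 in rescue (SD, n = 3). Its mean level exceeded that of 7.17% of tested genes with empty vector, 75.3% in knockout cells and 10.3% in rescue.

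Vegfa (ENSMUSG00000023951; chromosome 17, 46016993 to 46032369, minus strand) was the ligand with the highest level in all 9 libraries. It stood at 729, 794 and 808 CPM with empty vector, 607, 598 and 540 CPM in knockout cells and 545, 534 and 573 CPM in rescue cells. The 3 empty-vector libraries were above all others, and knockout and rescue overlapped. Vegfa fell by 0.42 ± 0.07 on the log2 scale in knockout against empty vector, 1.34-fold (edgeR adjusted p = 3.4e-05). It was also lower in rescue than in empty-vector cells, by 1.41-fold (log2 change -0.50 ± 0.07; edgeR adjusted p = 9.3e-06).

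Between rescue and knockout the Vegfa difference was -0.08 on the log2 scale, with a 95% confidence interval of -0.22 to 0.07 (edgeR adjusted p = 0.34). With library totals alone as the scale this small difference was 0.11. In mean FPKM Vegfa was 179 ± 8.14 with empty vector, 136 ± 8.86 in knockout cells and 128 ± 4.51 in rescue (SD, n = 3). These levels exceeded those of 98.3%, 97.3% and 97.3% of tested genes. The table counts reads per gene, so splice forms of Vegfa were not separated.

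Vegfb (ENSMUSG00000024962; chromosome 19, 6982473 to 6987651, minus strand) stood at 37.5, 36.8 and 39.8 CPM with empty vector, 55.2, 50.6 and 52.2 CPM in knockout cells and 42.8, 44.0 and 43.9 CPM in rescue. The 3 groups did not overlap, with rescue between the other two. Vegfb rose 1.38-fold in knockout against empty vector (log2 change 0.47 ± 0.06, SE; edgeR adjusted p = 3.8e-06). It fell 1.21-fold in rescue against knockout (log2 change -0.28 ± 0.06; edgeR adjusted p = 0.0011), a call that was lost with library totals alone as the scale (edgeR adjusted p = 0.26).

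Rescue exceeded empty vector in Vegfb by 0.19 ± 0.06 log2 units (edgeR adjusted p = 0.019). That call did not hold without empty-vector replicate 2, rescue replicate 2 or rescue replicate 3, with edgeR adjusted p-values of 0.063, 0.058 and 0.051, nor without a filter on low counts (edgeR adjusted p = 0.073). In the authors' deposited table its adjusted p was 0.052. Per length Vegfb was at 23.4 ± 0.982 FPKM with empty vector, 32.8 ± 1.49 in knockout cells and 27.0 ± 0.439 in rescue (SD, n = 3).

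**Figure D1:**
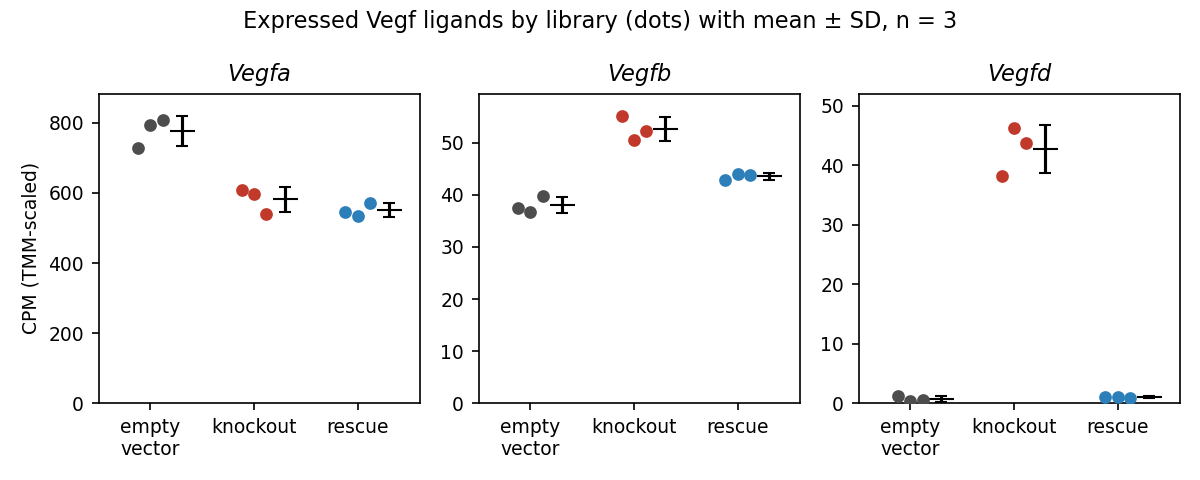
Level of Vegfa, Vegfb and Vegfd in CPM with TMM scaling, 1 dot per library, with the mean and SD of 3 libraries beside the dots. Vegfa is highest in the 3 empty-vector libraries, Vegfb is highest in knockout, and Vegfd runs from 38.2 to 46.2 CPM in knockout against at most 1.24 CPM in the other 6 libraries.

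Vegfc and Pgf were near or below detection. Vegfc (ENSMUSG00000031520; chromosome 8, 54077606 to 54187096, plus strand), the closest relative of Vegfd, had 2 counts in empty-vector replicate 3 and 0 in each of the other 8 libraries. A count of 0 over the group allows up to 0.0582 CPM in knockout cells and 0.0482 CPM in rescue, counting error only. Pgf (ENSMUSG00000004791; chromosome 12, 85166635 to 85177790, minus strand) had 2, 0 and 2 counts with empty vector, 0, 5 and 5 in knockout cells and 0, 0 and 3 in rescue. No difference in either gene was detectable at this depth.

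Within the family the order by mean FPKM was Vegfa, Vegfb, Vegfd and then Pgf and Vegfc in each group. Values of Vegfa, Vegfb and Vegfd did not overlap within a group, while those of Pgf and Vegfc rest on a few counts and were not told apart. Vegfa exceeded Vegfd 330-fold, 1390-fold and 809-fold in the empty-vector libraries. The same ratio was 8.93, 7.28 and 6.95 in knockout cells and 277, 289 and 365 in rescue.

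Vegfd made up 0.266%, 0.0641% and 0.109% of the summed FPKM of the 5 ligands with empty vector, 8.27%, 10.1% and 10.3% in knockout cells and 0.297%, 0.283% and 0.227% in rescue. The share of the Flt4 ligands, Vegfc and Vegfd together, was 9.38 percentage points higher in knockout than in empty vector and 9.26 points higher than in rescue. Exact permutation tests gave p = 0.10 for both (two-sided), the smallest p that 3 against 3 libraries allow. Rescue and empty vector differed by 0.118 points (two-sided exact permutation p = 0.20). Vegfa held 88.3% ± 0.637, 72.8% ± 1.33 and 82.3% ± 0.521 of the sum with empty vector, knockout and rescue (SD, n = 3). For Vegfb the shares were 11.6% ± 0.530, 17.6% ± 0.951 and 17.4% ± 0.515. The summed FPKM of the 5 ligands was 203 ± 8.32 with empty vector, 186 ± 8.86 in knockout cells and 155 ± 4.61 in rescue.

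**Figure D2:**
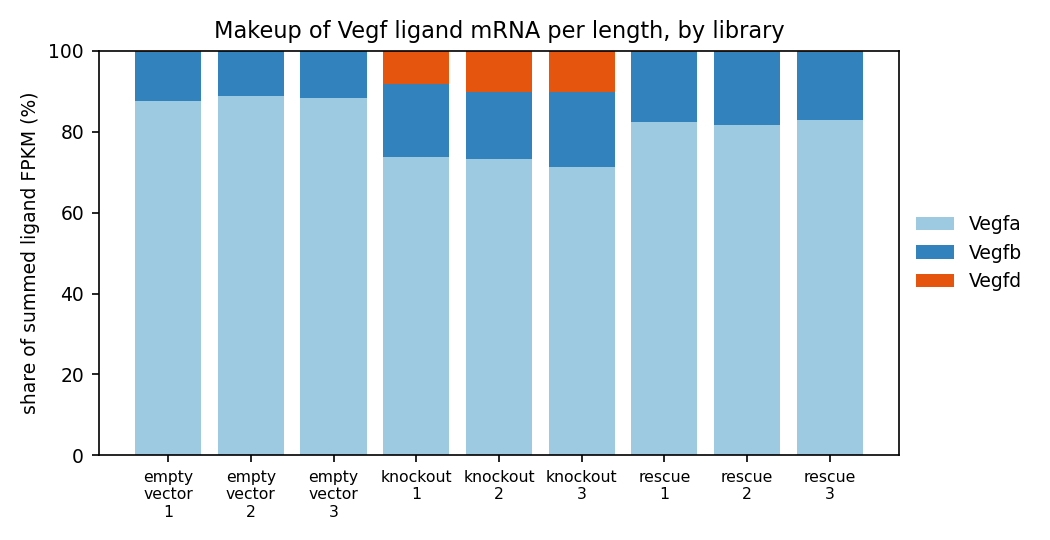
Share of Vegfa, Vegfb and Vegfd in the summed FPKM of the 5 ligands, 1 stacked bar per library, in percent. Vegfd takes 8.27% to 10.3% in the 3 knockout libraries and under 1% elsewhere, where it is too thin to see, and Vegfc and Pgf are too low to be drawn.

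Vegfd lies in tandem with Pir, a gene for an iron-binding nuclear protein, which is on the same strand and ends 367 bases before the Vegfd start. No gene of the table overlaps a ligand. Of 16 genes within 500 kb of Vegfd, 6 were tested. In knockout against empty vector 2 of them rose and 2 fell, where 29.5% of tested genes rose and 31.1% fell. Log2 changes of the 6 ran from -0.64 for Siah1b to 0.50 for Car5b. Pir stood at 9.87 ± 1.41 CPM with empty vector, 13.6 ± 0.363 in knockout cells and 14.0 ± 1.62 in rescue (SD, n = 3). It rose by 0.45 ± 0.12 log2 units in knockout (edgeR adjusted p = 0.0028) and its difference between rescue and knockout was 0.04 ± 0.12 (edgeR adjusted p = 0.81). Piga, the next tested gene downstream, had log2 differences of -0.16 ± 0.08 and 0.29 ± 0.08 in the 2 comparisons, of which the second passed (edgeR adjusted p = 0.0881 and 0.00405). Under library totals alone and without knockout replicate 1 the first also passed (-0.32 and -0.22; edgeR adjusted p = 0.00304 and 0.0418). In rescue against knockout 3 of the 6 neighbours rose and 0 were called lower, where 29.5% of tested genes rose and 27.3% fell. Car5b, at -0.14 ± 0.07 in that comparison (edgeR adjusted p = 0.085), was called lower with RLE size factors (-0.16; edgeR adjusted p = 0.0441) and with only the groups compared (-0.16; edgeR adjusted p = 0.0217), and was 0.048 with library totals alone.

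**Figure D3:**
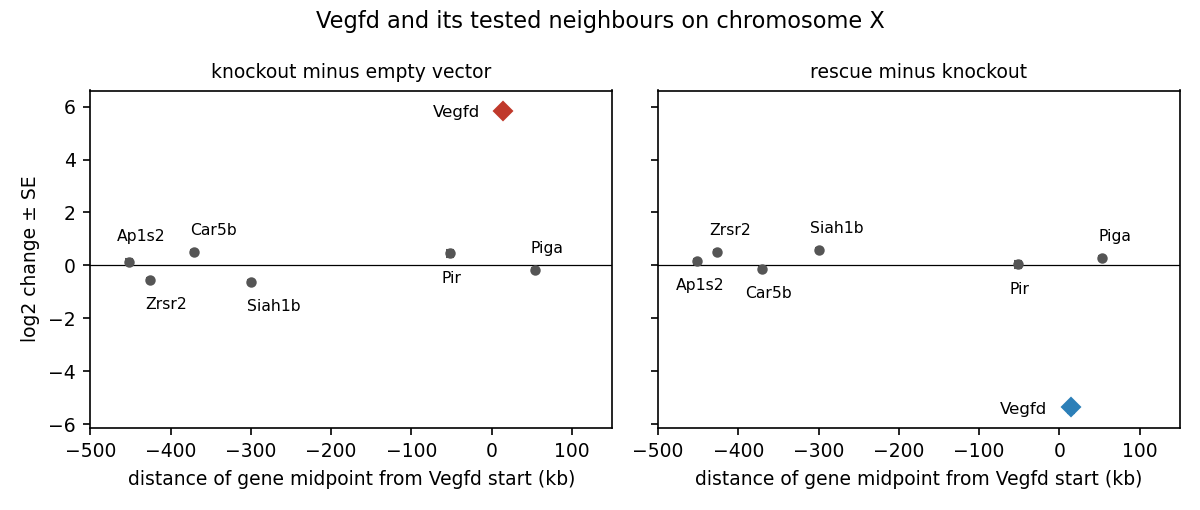
Log2 change ± SE of Vegfd (diamond) and its 6 tested neighbours within 500 kb (circles) against the distance of each gene's midpoint from the Vegfd start in kb, for knockout minus empty vector and rescue minus knockout. The neighbours stay between -0.64 and 0.59 in both panels, while Vegfd is at 5.83 and -5.37.

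The genes whose pattern over the 9 libraries was most like that of Vegfd were sought among 10467 protein-coding genes by the root mean square difference of centred log2 CPM. They were Olfml3, a secreted olfactomedin-like protein (difference 0.38 log2 units), Afp, the fetal serum protein alpha-fetoprotein (0.48), and Prrg1, a membrane protein (0.49), where the median gene differed by 2.69. Olfml3 stood at 0.682 ± 0.313 CPM with empty vector, 39.6 ± 2.27 in knockout cells and 0.851 ± 0.262 in rescue (SD, n = 3). Afp was at 0.0831, 9.89 and 0.208 CPM, and Prrg1 at 5.46 ± 0.386 CPM in knockout with no count elsewhere. Only genes with a mean of at least 1 CPM over the 9 libraries were compared. Olfml3, Afp and Prrg1 had group means under 1 CPM outside knockout, so their pattern follows in part from that cut. The log2 CPM used a prior count of 2, which compresses differences at the lowest levels. Those most like Vegfb were Ube4b, a ubiquitin ligase (0.039), Nqo2, a quinone reductase (0.051) and Cobll1 (0.051), where the median was 0.31. Ube4b went from 146 ± 3.55 to 209 ± 8.57 and back to 172 ± 4.23 CPM, an order of groups like that of Vegfb. These are resemblances over 3 groups of libraries that share depth and scaling, and they were given no test.

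The receptor tyrosine kinases for the ligands were near or below detection. Kdr had no count in any library, Flt4 had 1 count in all, and Flt1 had 17, 29 and 16 counts summed over the empty-vector, knockout and rescue libraries. Of the 5 receptor genes the neuropilins were the 2 tested, and both rose in knockout (median log2 change 1.36) and fell in rescue against knockout (median -1.39). Over all tested genes 29.5% rose in knockout (median -0.02) and 27.3% fell in rescue against knockout (median 0.03). Nrp1 stood at 22.3, 14.7 and 18.4 CPM with empty vector, 82.8, 84.1 and 78.9 CPM in knockout cells and 23.7, 22.1 and 23.0 CPM in rescue. Knockout lay above all other libraries, and the other groups overlapped. The increase was 2.13 ± 0.10 log2 units and the later change -1.84 ± 0.10 (SE; edgeR adjusted p = 2.4e-11 and 1.2e-10). Nrp2, which pairs with Flt4 for Vegfc and Vegfd, stood at 641 ± 23.2 CPM with empty vector, 960 ± 66.5 in knockout cells and 499 ± 23.0 in rescue (SD, n = 3). Its log2 changes were 0.58 ± 0.07 and -0.94 ± 0.07 (edgeR adjusted p = 6.5e-07 and 1.1e-09). In rescue against empty vector, where 47.5% of tested genes were called, Nrp1 was called higher (0.30 ± 0.11; edgeR adjusted p = 0.029). Nrp2 was called lower there (-0.36 ± 0.07; edgeR adjusted p = 0.00032).

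Of 11 genes listed for ligand processing, 6 were tested: 5 rose and 1 fell in knockout against empty vector (median log2 change 1.15, against -0.02 over all tested genes), and all 6 fell in rescue against knockout (median -1.04, against 0.03). Over all tested genes 29.5% rose and 31.1% fell in knockout, and 27.3% fell in rescue against knockout. Plat, tissue plasminogen activator, rose from 64.5 ± 6.21 to 303 ± 21.8 CPM (edgeR adjusted p = 3.1e-14; errors are SD, n = 3) and was at 55.7 ± 4.06 in rescue. Furin, a proprotein convertase that cleaves Vegfc and Vegfd precursors, rose from 70.2 ± 6.10 to 197 ± 15.3 CPM (edgeR adjusted p = 9.2e-11), with rescue at 99.3 ± 10.7. Ctsd, a lysosomal protease also reported to activate Vegfd, rose by 0.81 ± 0.09 log2 units (edgeR adjusted p = 2.5e-07). Ccbe1, a co-factor of Vegfc activation, had 2.10, 0.661 and 1.10 CPM in knockout cells and at most 0.488 CPM elsewhere (log2 change 1.49 ± 0.40; edgeR adjusted p = 0.0032). Only its knockout libraries were high enough to pass the low-count filter, so its direction follows in part from that filter. Ccbe1 is counted among the 5 that rose and the 6 that fell, and in the medians. The gene that fell was Plau, urokinase (-0.18 ± 0.07; edgeR adjusted p = 0.029), which was not called with RLE size factors, DESeq2 or limma on FPKM, nor without each of empty-vector replicate 1 and knockout replicates 2 and 3. Adamts3, the main activating protease of Vegfc, had no count. Plg, the gene for plasminogen, had 5, 0 and 1 counts summed over the empty-vector, knockout and rescue libraries.

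Among 14 listed secreted antagonists, vasohibins and class 3 semaphorins, counted together as antagonists, 9 were tested. In knockout against empty vector 5 rose and 1 fell (median 0.22). In rescue against knockout 2 rose (Sema3e and the vasohibin gene Vash2) and 6 fell (median -0.68). Over all tested genes 29.5% rose and 31.1% fell in the first comparison (median -0.02), and 29.5% rose and 27.3% fell in the second (median 0.03). Sema3f, a neuropilin ligand that opposes Vegf signalling, rose from 14.7 ± 1.12 to 56.3 ± 4.61 CPM (edgeR adjusted p = 6.9e-12; errors are SD, n = 3) and stood at 16.6 ± 2.46 in rescue. Sema3e went the other way, from 10.9 ± 0.566 to 2.20 ± 0.669 CPM (edgeR adjusted p = 2.1e-10), with 15.7 ± 0.530 in rescue. Serpinf1, the antiangiogenic factor Pedf, rose by 0.56 ± 0.07 log2 units and changed by -0.79 ± 0.07 in rescue against knockout (edgeR adjusted p = 9.9e-07 and 1.1e-08). For Sema3b the increase of 0.15 ± 0.06 passed narrowly (edgeR adjusted p = 0.044), its estimate with library totals alone was -0.0018, and the call was lost without a low-count filter, with only the groups compared, with a replicate block and without each of empty-vector replicates 2 and 3 and knockout replicates 1 and 2. The count of those that rose was 3 without knockout replicate 1.

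Of 19 factors known to act on transcription or mRNA stability of the ligands, 18 were tested. In knockout against empty vector 6 rose and 5 fell (median 0.06), and in rescue against knockout 7 rose and 6 fell (median 0.13). The shares called over all tested genes were 60.6% and 56.8%, so these counts are near the background. Epas1, the alpha subunit of hypoxia-inducible factor 2, had 3, 1 and 1 counts in knockout cells and none in the other libraries, while Hif1a was at 332 ± 52.6, 366 ± 8.40 and 498 ± 21.8 CPM with empty vector, knockout and rescue (SD, n = 3). Vhl mRNA was at 59.0 ± 4.57, 50.9 ± 4.07 and 62.8 ± 4.91 CPM in the same order. It changed by -0.22 ± 0.08 log2 units in knockout and 0.30 ± 0.08 in rescue against knockout (edgeR adjusted p = 0.0226 and 0.00244). Whether Vhl is intact in this line was not tested. Ppargc1a, a coactivator of mitochondrial genes that can induce Vegfa, fell from 12.1 ± 2.38 to 2.52 ± 0.808 CPM in knockout (edgeR adjusted p = 3.7e-08) and stood at 13.2 ± 1.37 in rescue. Zfp36l1, a protein that destabilises Vegfa mRNA, rose from 46.8 ± 3.42 to 84.3 ± 4.49 CPM (edgeR adjusted p = 7.7e-09) and was at 96.8 ± 7.67 in rescue. Of the AP-1 genes, Fos rose by 0.51 ± 0.15 log2 units, Fosb by 1.18 ± 0.23, Junb by 0.61 ± 0.09 and Jund by 0.69 ± 0.07 in knockout, Fosl2 fell by 0.25, and Fosl1 and Jun were not called (-0.11 ± 0.21 and -0.13 ± 0.08). In rescue against knockout Fos was not called (0.17 ± 0.15; edgeR adjusted p = 0.33) and Fosl1 rose by 0.52 ± 0.20. Fosb, Fosl2, Jun, Junb and Jund fell there, with log2 changes of -0.61, -0.35, -0.35, -0.64 and -0.31. The call for Jund was lost with library totals alone as the scale (edgeR adjusted p = 0.104).

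Of 12 listed targets of the hypoxia-inducible factors other than Vegfa, 11 were tested. In knockout against empty vector 4 rose and 3 fell (median -0.19), where 29.5% of all tested genes were higher and 31.1% lower, so these counts are near the background. In rescue against knockout 5 rose and 1 fell (median 0.17), against 29.5% and 27.3% of all tested genes. Without any 1 of empty-vector replicates 2 and 3 and knockout replicates 1 and 3, the genes that rose in knockout numbered 2, and without empty-vector replicate 3 those that fell numbered 5. Adm, the vasodilator peptide adrenomedullin, fell from 260 ± 23.3 to 80.5 ± 4.54 CPM (edgeR adjusted p = 7.6e-13; errors are SD, n = 3) and was at 162 ± 10.7 in rescue. Pgk1, a glycolytic enzyme, fell from 859 ± 78.1 to 584 ± 32.8 CPM in knockout (edgeR adjusted p = 3.1e-06), and was at 1155 ± 33.5 in rescue. Pdk1, which restrains pyruvate dehydrogenase, changed by -0.31 ± 0.08 and 0.92 ± 0.08 log2 units in the 2 comparisons (edgeR adjusted p = 0.0036 and 1.4e-08). Ldha, lactate dehydrogenase, had a log2 difference of 0.05 ± 0.09 in knockout against empty vector (edgeR adjusted p = 0.69), and 0.22 without empty-vector replicate 1, where it was called (edgeR adjusted p = 0.0057). It rose by 0.64 ± 0.09 in rescue against knockout (edgeR adjusted p = 9.3e-06). The 4 that rose in knockout were the glucose transporter gene Slc2a1 (0.65 ± 0.24), Ankrd37 (1.32 ± 0.52), the histone demethylase gene Kdm3a (0.38 ± 0.10) and the collagen prolyl hydroxylase gene P4ha1 (0.33 ± 0.08), with edgeR adjusted p-values of 0.0499, 0.034, 0.0043 and 0.0017. Vegfa itself fell in the first comparison and was not called in the second.

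Of 10 Pdgf and other angiogenic ligands 4 were tested, with median log2 changes of -0.03 in knockout against empty vector and -0.41 in rescue against knockout. Over all tested genes these medians were -0.02 and 0.03. In the first comparison 2 of the 4 rose and 1 fell, and in the second 1 rose and 2 fell. The shares called over all tested genes were 60.6% and 56.8%, so a call by itself sets none of these genes apart. Pdgfa and Pdgfc rose in knockout by 0.41 ± 0.09 and 0.38 ± 0.07 log2 units and changed by -0.44 ± 0.09 and -0.37 ± 0.07 in rescue against knockout. Pdgfb went the opposite way (-0.46 ± 0.06 and 0.54 ± 0.06), and edgeR adjusted p-values for these 3 genes were at most 0.00048. Fgf2 was not called in either comparison. Angpt1 and Apln had no count in any library. The comparisons of knockout with empty vector and of rescue with knockout share the knockout libraries, so opposite signs in the 2 are not independent.

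**Figure D4:**
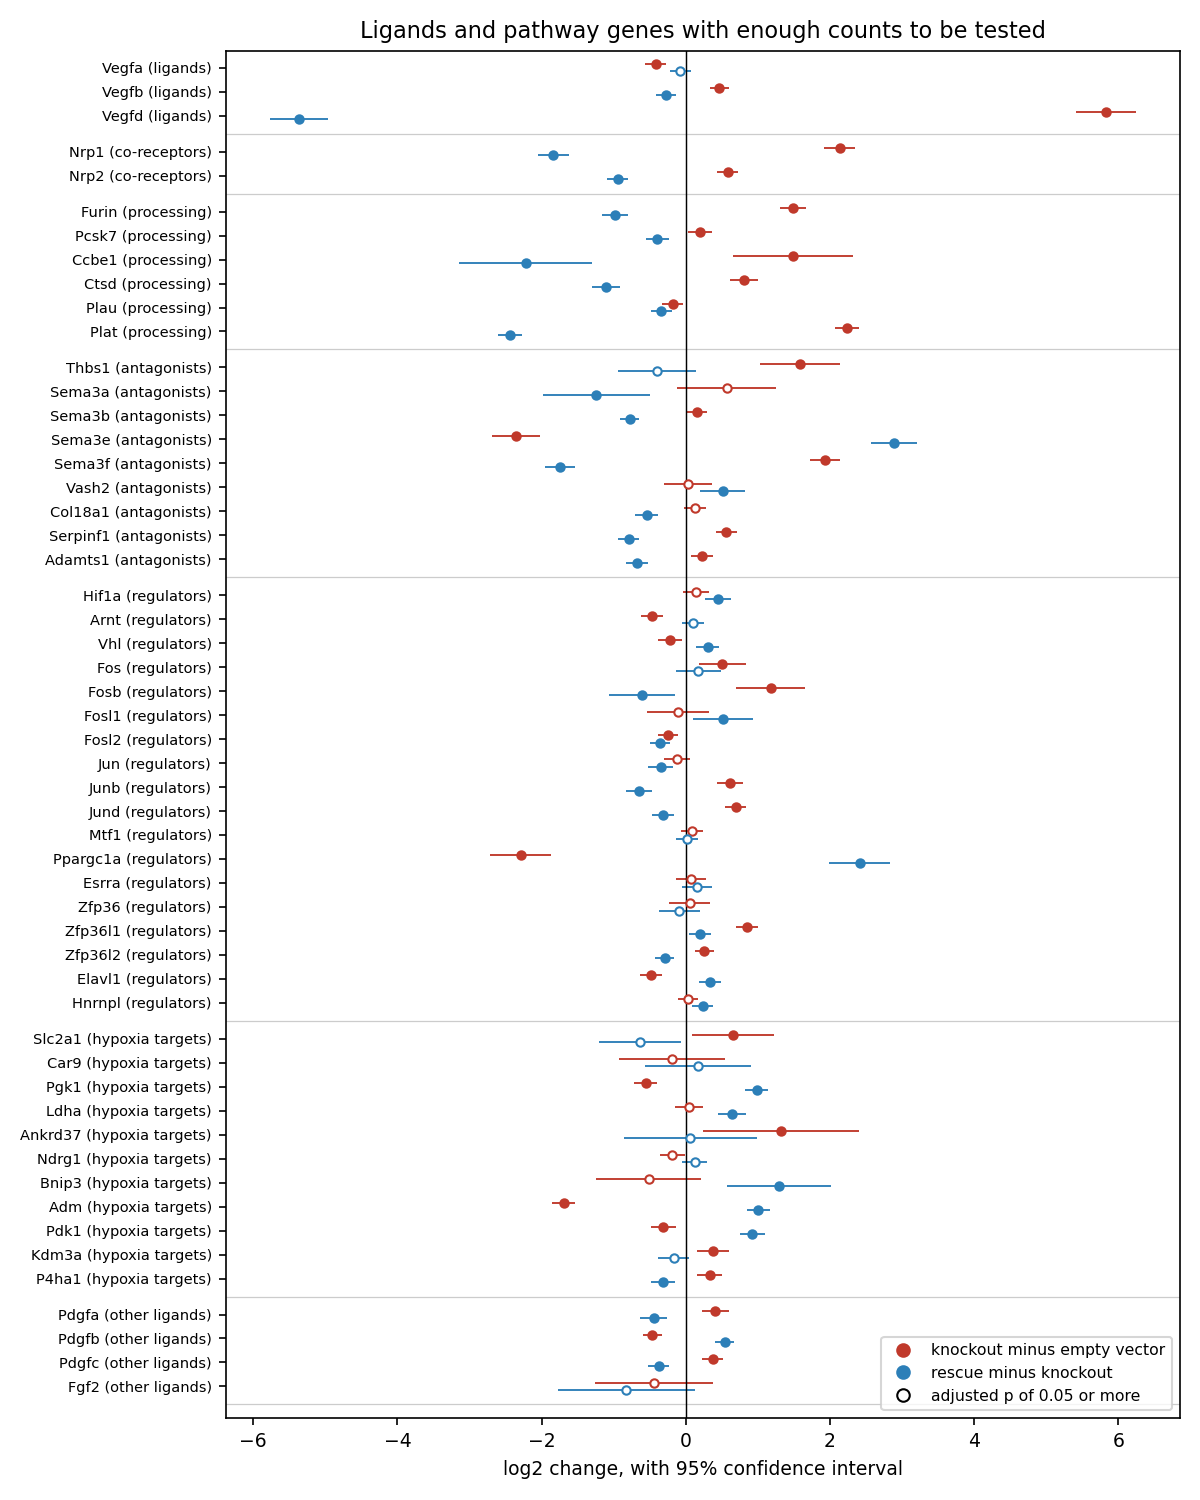
Log2 change with its 95% confidence interval for each tested ligand and pathway gene, in knockout minus empty vector (red) and rescue minus knockout (blue), where open circles mark an adjusted p of 0.05 or more. Vegfd is at 5.83 and -5.37, while the next largest changes among the genes drawn are near 2 to 3 log2 units, among them Plat, Nrp1, Ppargc1a and Sema3e.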

How the data were processed

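Poly(A) RNA of 9 RENCA libraries was sequenced on Illumina instruments. The labels nonetheless give the molecule as genomic DNA and the library source as genomic for these RNA-seq libraries. Per the submitters' processing notes, the tools were CASAVA, HISAT, HISAT2 and TopHat2 (roles and versions not named) and the build mm10. The protocol in the labels describes directional and non-directional preparation without saying which was used, and the read counter was not given in the sources used here. The authors deposited whole-number counts and FPKM for each gene and library, per the file headers. FPKM values were used for levels between genes and in 1 alternative, on the scale log2(FPKM + 0.1). The authors deposited log2 fold changes and p-values from a test that no source here names.

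The count test was edgeR 4.0.16 (R 4.3.3): filterByExpr, TMM factors, a robust quasi-likelihood fit of all 9 libraries with 1 mean per group, and Benjamini-Hochberg adjustment over 13326 genes, called under 0.05. Standard errors (SE) were derived from each log2 change and its F statistic. CPM uses TMM-scaled totals. The fit was tested on simulated data. Alternatives used DESeq2 1.42.0 and limma 3.58.1. Replicates were distinct libraries, since chi-square over genes for within-group pairs was 3.52 to 19.5 times its degrees of freedom.

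Named genes were all 5 ligands, the receptors, up to 4 called genes of each pathway list with the smallest adjusted p, and the 3 genes with the pattern most like a ligand called in both knockout comparisons. Listed genes outside this rule (Plau, Adamts3, Plg, Vash2, Epas1, Hif1a, Vhl, Slc2a1, Ankrd37, Kdm3a, P4ha1, Pax2, several AP-1 genes, Fgf2, Angpt1, Apln, Vegfd neighbours) were chosen after their values were seen. Members and lists were chosen with earlier results of these data known.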

Additional observations from a re-analysis of the deposited data

How the results depend on the processing

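For the ligands, 110 of 117 alternative values kept their direction and their side of the threshold. Scaled by library totals alone, the Vegfa difference of rescue against knockout turned to 0.11 (edgeR adjusted p = 0.16) and that of Vegfb was -0.090 and not called. That scaling moved the median of all genes from -0.02 to -0.18 in knockout against empty vector and from 0.03 to 0.22 in rescue against knockout, and the share of called genes that were higher from 48.7% to 34.4% and from 51.9% to 69.6%. Without a filter on low counts the Vegfb difference of rescue against empty vector was 0.19 and not called. Leaving out 1 library gave 0.17 to 0.23 for that value and 0.21 to 1.15 for Vegfd in rescue against empty vector. Counts without length correction put the difference in Flt4 ligand share at 6.23 points for knockout against empty vector and -6.15 for rescue against knockout. For Vegfc and Pgf, which were not among the tested genes, edgeR without a filter gave adjusted p-values of 0.23 or more.

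Numbers of genes called stayed within 1.5 times of the main ones under all 13 alternatives in each comparison. Of 312 alternative counts over the pathway lists, 291 did so. With library totals alone, 3 antagonists in place of 5 and 2 hypoxia targets in place of 4 rose in knockout, and 2 regulators in place of 6 and 0 hypoxia targets in place of 1 fell in rescue against knockout. The 1 processing gene that fell in knockout was lost (0) with RLE size factors, with DESeq2 and with limma on FPKM. Hypoxia targets that fell in rescue against knockout numbered 2 with DESeq2, with the replicate block and with limma, and 3 with only the groups compared, where 2 rose in knockout. Leaving out 1 library gave 0 to 1 processing genes that fell, 3 to 6 antagonists that rose, 2 to 5 hypoxia targets that rose and 3 to 5 that fell in knockout. Small differences turned sign with library totals for Sema3b (-0.0018), Ldha (-0.11) and Ap1s2 (-0.0062) in knockout against empty vector and for Car5b (0.048) in rescue against knockout. Ldha was also at -0.0017 without a filter and -0.051 without empty-vector replicate 3, and rose to 0.22 and was called without empty-vector replicate 1. Leaving out 1 library gave -0.68 to 0.016 for Ndufa4l2 in knockout against empty vector, above 0 without knockout replicate 3, and -0.038 to 0.13 for Pir in rescue against knockout, below 0 without rescue replicate 2. The cause of these shifts was not tested. Replicate numbers did not pair the libraries: deviations of same-numbered libraries correlated at -0.15 to 0.05 across genes, and with the replicate block the ligand calls were the same, with Vegfd at 5.83 log2 units in knockout against empty vector. Depth limits Vegfc, Pgf, Flt1 and Epas1, for which a few counts decide any difference.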
